A study of Mus musculus with 4 samples.

Results

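Autonomic neuron specification genes are described here through 8 genes, *Phox2a*, *Hand2*, *Gata2*, *Gata3*, *Hmx1*, *Th*, *Dbh* and *Chrna3*, of the 46983 genes listed for each library. RNA was sequenced from E10.5 mouse larynx (32 to 35 somites), in 2 Shh-/- pools and 2 WT pools, each made from 3 larynxes, so that 4 libraries were compared. The mutant embryos carried the Shhtm1amc null allele on a Swiss Webster background, and the WT embryos were Swiss Webster. The sample labels write the mutant genotype as Shh+/-, while the series text and the study's methods give Shh-/-, which is used here. The allele is germline, so every tissue of the mutant embryo carried it. The dissected piece was tissue rather than sorted cells, named vocal fold tissue in the study's methods and larynx in its figure legend. The 8 genes were matched by symbol and were chosen from differences seen between these same Shh-/- and WT libraries, so their differences are given as a description, without a test.

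Sympathetic, parasympathetic and enteric neurons, and the chromaffin cells of the adrenal medulla, arise from neural crest cells that migrate to sites where BMP ligands are made. There the cells of the sympathetic and chromaffin lineages switch on a series of transcription factors that includes *Phox2a*, *Hand2*, *Gata2* and *Gata3*. This set of factors drives the enzymes that make noradrenaline, of which TH and DBH carry out the rate-limiting and the last step, and the acetylcholine receptors through which preganglionic axons signal. Several of the same genes also act elsewhere, *Phox2a* in cranial visceral sensory ganglia and hindbrain motor neurons, *Hand2* in heart and pharyngeal arch mesenchyme, *Gata2* in blood and endothelium, *Gata3* in ear and pharyngeal epithelium, and *Hmx1* in cranial sensory ganglia.

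The bases just upstream of the transcription start are shown for *Th*, which holds a cAMP response element there, and for *Dbh* and *Hand2*, which hold cores read by homeodomain or GATA factors (RefSeq sequence, GRCm38.p6, written 5′ to 3′ on the strand of the gene). In *Th* (chr7:142900016-142900070, minus strand, bases -75 to -21) the capitals mark the cAMP response element TGACGTCA. In *Dbh* (chr2:27165342-27165371, plus strand, bases -165 to -136 from the RefSeq start, which lies downstream of the gene start in the deposited tables) they mark ATTA, the core that paired-like homeodomains read. In *Hand2* (chr8:57320745-57320826, plus strand, bases -238 to -157) they mark ATTA and the GATA letters (GATA after an A or a T and before an A or a G), read on both strands and partly overlapping. The RefSeq starts of *Th* and *Gata3* lie far downstream of their gene starts in the deposited tables, 142931128 and 9890034.
*Th*: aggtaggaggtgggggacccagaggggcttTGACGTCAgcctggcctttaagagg
*Dbh*: catgtgtcATTAgtgccaATTAggggagat
*Hand2*: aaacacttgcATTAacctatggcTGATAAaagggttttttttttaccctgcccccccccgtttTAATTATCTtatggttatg

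Over the 250 bases upstream of a start, TGACGTCA was found in 1.55% of 32851 RefSeq promoters, and among the members only in *Th*, 45 bases before the start. At least 3 ATTA cores stood in 17.3% of promoters, with 3 in *Dbh* and 5 in *Hand2*, and *Th* had 2. At least 2 GATA matches stood in 6.4% of promoters, with 2 in *Hand2*, and *Chrna3* had 1, which 26.5% of promoters have. The GLI letters GACCACCCA, present in 0.225% of promoters, were in none of the 9 windows of the 8 members. *Phox2a*, *Gata3*, *Hmx1* and both starts of *Gata2* held none of the matches above in this window. E-boxes (CANNTG) stood in 66.2% of promoters and in *Th*, *Dbh*, *Hand2*, *Chrna3* and *Hmx1*. The E-box variant CATCTG was in 14.4% of promoters and, among members, in *Hand2*, and TATAAA or TATATA was in 15.6% and in no member. These windows were rich in G and C (70.4% in *Phox2a*, 70.0% in *Gata3*, 67.2 and 74.0% in *Gata2*, and 75.6% in *Hmx1*) against a median of 52.4% over all promoters, whereas *Hand2* had 49.2% and *Dbh* 53.2%. A match of letters is a description and is no record of binding.

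Depth was read from the tables as the ratio of coverage to FPKM, which gives 1372 Mb of aligned sequence in the first Shh-/- pool and 2845 to 3128 Mb in the other 3 libraries. Levels are given as TPM, a share of transcripts that allows for gene length, so that genes can be set beside each other within a library. *Ptch1*, the HH receptor that the pathway itself induces, was at 12.9 and 13.8 TPM in the mutant and at 57.8 and 55.1 TPM in WT pools (adjusted p = 0.0319 from limma), and *Shh* transcripts were at 10.4 and 10.8 against 23.7 and 42.1 TPM. Larynx epithelial markers were present in all 4 libraries, with *Epcam*, *Krt8* and *Krt18* at 84.0 TPM or more, while *Nkx2-1* was at 3.61 to 6.16 TPM in Shh-/- and 15.9 to 17.9 TPM in WT. *Foxa2* was also lower, at 5.34 and 9.12 TPM in Shh-/- and 29.2 and 39.8 TPM in WT, and the pools of *Sox2* overlapped. The mesenchymal factor *Foxf1* was at 0.848 and 9.57 TPM in the mutant pools and at 72.3 and 64.6 TPM in WT. The mesenchymal markers *Pdgfra*, *Prrx1* and *Twist1* had both mutant pools above both WT pools, as 38% of all tested genes did. *Pdgfra* was apart by a small margin, at 105.9 and 104.8 TPM in Shh-/- and 82.6 and 103.1 TPM in WT (adjusted p = 0.416 from limma). *Prrx1* was at 177.8 and 128.6 TPM against 65.6 and 71.1 TPM (adjusted p = 0.0715 from limma). *Twist1* was at 147.0 and 125.0 TPM in Shh-/- and 46.1 and 43.8 TPM in WT (adjusted p = 0.0323 from limma).

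Of the 8 members, both Shh-/- pools were above both WT pools for *Phox2a*, *Hand2*, *Gata2*, *Hmx1*, *Dbh* and *Chrna3*, a total of 6, and below both for 1, *Th*. Over all 16972 tested genes (those averaging 1 TPM or more), 38.0% had both Shh-/- pools above and 22.7% had both below. Because this contrast chose the members, nothing is read from that comparison. The median difference of the members, Shh-/- minus WT on the log2(TPM + 1) scale, was 0.73, against 0.08 over all tested genes. The differences ran from -1.15 (*Th*) to 3.68 (*Hmx1*), so the genes did not share 1 size of change or 1 direction. In whole tissue, more cells of a type, fewer cells of other types and more RNA per cell cannot be told apart.

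**Figure D1:**
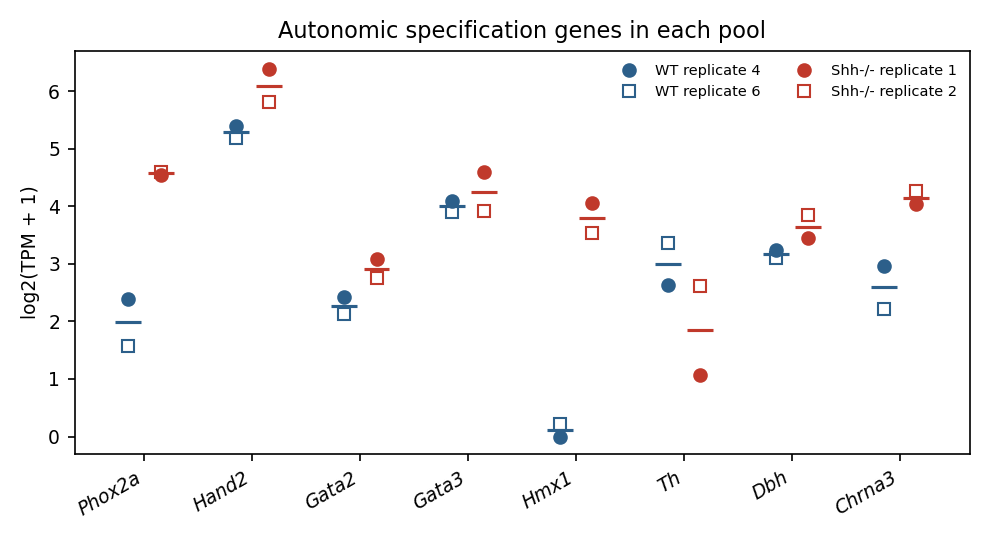
Level of each member in each pool, as log2(TPM + 1) on the vertical axis, with blue for WT and red for Shh-/- pools and a bar at the mean of the 2 pools. *Hmx1* and *Phox2a* have the widest gaps between genotypes, the pools of *Gata3* overlap, and *Th* is the only member with both Shh-/- pools below both WT pools.

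*Phox2a*, a paired-like homeodomain factor of noradrenergic neurons (chromosome 7, 101818313 to 101822726), measured 22.3 and 23.2 TPM in the mutant pools and 4.23 and 1.99 TPM in WT pools. The mutant pools were nearly equal and stood far above both WT pools, which differed from each other. The mutant mean was 22.8 ± 0.595 TPM (SD, n = 2 pools) and the WT mean 3.11 ± 1.59 TPM (SD, n = 2), a 7.32-fold ratio, and the log2 difference was 2.59 with a standard error of 0.30. It lay between 2.18 and 2.99 when any 1 pool was left out. The read coverage behind these values was 14.7 and 36.1 reads per base in the mutant pools and 6.03 and 2.95 in WT. The listed gene shares 95 bases with *Inppl1* on the opposite strand, which was at 37.9 to 60.0 TPM, and how the authors counted strand is not given in the sources used here.

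*Hand2*, a bHLH factor that maintains the noradrenergic program (chromosome 8, 57320983 to 57324517), was the most abundant member in both genotypes. It measured 82.4 and 55.2 TPM in Shh-/- pools and 40.8 and 35.4 TPM in WT pools, so the genotypes did not overlap, although the 2 mutant pools were farther apart than the mutant low was from the WT high. Its means were 68.8 ± 19.2 TPM (SD, n = 2) and 38.1 ± 3.84 TPM (SD, n = 2), with a log2 difference of 0.81 and a standard error of 0.22. Under an adjustment of the libraries for transcript GC and length, added after the data were seen, the difference was 0.43. Its paralog *Hand1*, which acts in heart, in arch mesenchyme and in sympathetic neurons, was lower in the mutant pools, at 6.67 and 5.42 TPM against 18.1 and 15.8 TPM (log2 difference -1.35, standard error 0.17, adjusted p = 0.0595 from limma). *Hand2* was therefore 12.4 and 10.2 times *Hand1* in the mutant pools and 2.26 and 2.24 times in the WT pools, where the pools of a genotype were close to each other.

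The zinc finger factors *Gata2* and *Gata3* act in developing sympathetic neurons. *Gata2* (chromosome 6, 88193891 to 88207032) was at 7.44 and 5.78 TPM in Shh-/- and at 4.35 and 3.35 TPM in WT, apart by a small margin, with a log2 difference of 0.65 and a standard error of 0.22. Under the GC and length adjustment the difference was 0.22. *Gata3* (chromosome 2, 9857078 to 9890034) was at 23.2 and 14.1 TPM in Shh-/- and at 16.0 and 14.0 TPM in WT. Only the first Shh-/- pool lay above the WT range for *Gata3*, and the second lay between the 2 WT pools. Its log2 difference was 0.26 with a standard error of 0.26, and without the first Shh-/- pool it was -0.08. Transcripts that overlap *Gata3*, *4930412O13Rik* on the opposite strand and *9230102O04Rik* on the same strand, were at 0.833 to 3.91 TPM.

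*Hmx1*, an NKL homeodomain factor of sympathetic and cranial sensory neurons (chromosome 5, 35389108 to 35399730), measured 15.6 and 10.6 TPM in the mutant pools. In WT it was listed at 0 in 1 pool and at 0.165 TPM in the other, where the coverage was 0.236 reads per base. *Hmx1* was thus near the limit of detection in WT and above *Dbh* in the first Shh-/- pool. The log2 difference was 3.68 (standard error 0.26) with a pseudocount of 1, and it was 6.31 with 0.1 and 2.81 on FPKM, so its size is set by the pseudocount. A pair of transcripts that overlap the *Hmx1* span had the same order, with *4930442P19Rik* on the opposite strand at 1.06 and 1.12 TPM in Shh-/- and 0.0402 and 0 TPM in WT, and *Gm43377* on the same strand at 0.508 and 0.421 TPM against a listed 0 in both. The paralogs *Hmx2* and *Hmx3* were below 1 TPM in all 4 libraries (0.197 to 0.658 TPM).

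Among the other regulators listed beside the members, 9 of 11 were tested, and 2 passed as higher in Shh-/- and 0 as lower under the reported scaling, where 0.56% of all tested genes passed as higher and 0.165% as lower (limma, adjusted p under 0.05). The 2 were *Tlx2* and *Tlx3*, NKL homeobox genes of neural crest-derived and cranial visceral sensory neurons. *Tlx2* rose from 3.41 and 2.51 TPM in WT to 15.2 and 19.0 TPM (log2 difference 2.19, standard error 0.21, adjusted p = 0.0422 from limma). *Tlx3* rose from 0.74 and 0.165 TPM to 12.6 and 9.54 TPM (log2 difference 3.07, standard error 0.28, adjusted p = 0.0412 from limma). *Insm1*, a zinc finger factor that autonomic and other neuroendocrine precursors need, was at 12.4 and 9.33 TPM in Shh-/- and 4.04 and 1.96 TPM in WT (adjusted p = 0.0945 from limma). *Isl1*, a LIM homeodomain factor of sympathetic and sensory neurons and of the second heart field, was at 68.3 and 57.3 TPM in Shh-/- against 93.1 and 115.7 TPM in WT (adjusted p = 0.104 from limma). Of the 9 tested regulators 6 had both mutant pools above both WT pools, as 38.0% of all tested genes did. Another 3, with *Hand1* and *Isl1* among them, had both below, as 22.7% of all tested genes did. *Hand1* passed as lower under quantile normalization, median centring and the GC and length adjustment.

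**Figure D2:**
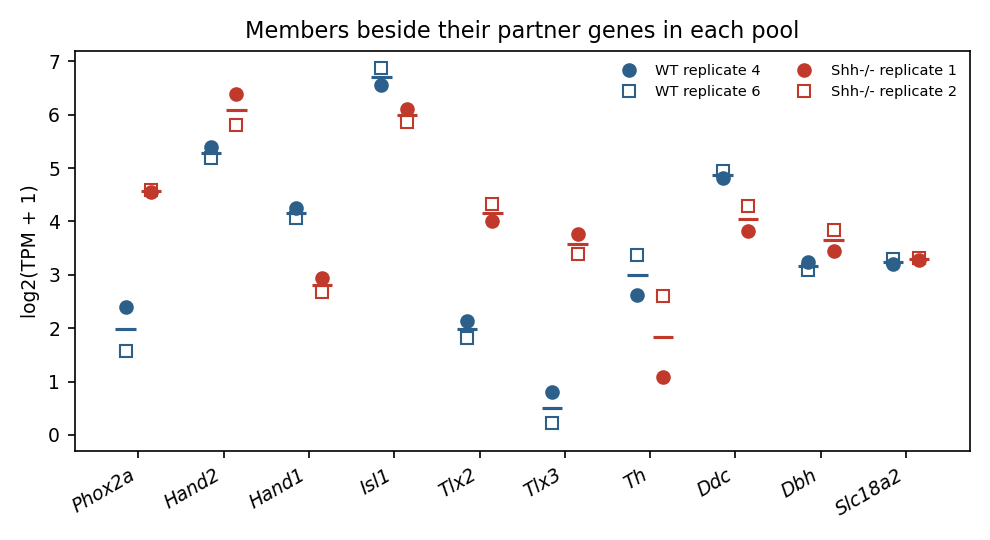
Level of 4 members and of partner genes in each pool, as log2(TPM + 1), in blue for WT and red for Shh-/- with a bar at the mean. *Phox2a*, *Hand2*, *Tlx2*, *Tlx3* and *Dbh* have both red points above both blue points, *Hand1*, *Isl1*, *Th* and *Ddc* have both below, and the points of *Slc18a2* lie together at 8.18 to 8.91 TPM.

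The catecholamine enzymes did not share a direction. *Th*, tyrosine hydroxylase (chromosome 7, 142892752 to 142931128), measured 1.11 and 5.10 TPM in the mutant pools and 5.17 and 9.32 TPM in WT pools. The second Shh-/- pool and the lower WT pool were nearly equal, and the lowest value came from the least deeply sequenced library, in which *Th* had a coverage of 0.615 reads per base. The means were 3.11 ± 2.83 TPM (SD, n = 2) and 7.25 ± 2.94 TPM (SD, n = 2), and the log2 difference was -1.15 with a standard error of 0.57, the widest of the 8. Without the first Shh-/- pool the difference was -0.39.

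*Dbh*, dopamine β-hydroxylase (chromosome 2, 27165233 to 27183200), had 9.89 and 13.4 TPM in mutant and 8.44 and 7.57 TPM in WT libraries, apart with a log2 difference of 0.48 and a standard error of 0.20. Under the GC and length adjustment its difference was 0.16. The ratio of *Dbh* to *Th* was 8.93 and 2.62 in the mutant pools and 1.63 and 0.812 in the WT pools. *Ddc*, the decarboxylase between the 2 enzymes, was at 13.1 and 18.6 TPM in Shh-/- and at 27.1 and 29.7 TPM in WT (log2 difference -0.82, standard error 0.20, adjusted p = 0.115 from limma). *Slc18a2*, the vesicular monoamine transporter of neurons, was at 8.69 and 8.91 TPM against 8.18 and 8.84 TPM, with overlapping pools.

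In the list of catecholamine synthesis, storage and breakdown genes, 11 of 15 were tested, with a median log2 difference of -0.08. Of these, 5 were higher and 6 lower in Shh-/-, where 9895 of all 16972 tested genes were higher. In limma 0 of the 11 passed (4 had an unadjusted p under 0.05). The largest differences among tested genes were those of *Maob*, a monoamine oxidase (5.17 and 3.82 TPM against 15.6 and 5.65 TPM), *Ddc*, *Spr* and *Cyb561*. *Spr*, which makes the TH cofactor tetrahydrobiopterin, was at 49.0 and 48.1 TPM in Shh-/- and 30.9 and 28.1 TPM in WT (adjusted p = 0.0754 from limma). *Slc6a2*, the noradrenaline transporter of mature sympathetic neurons, was at 0.0634 TPM or less in every library. *Pnmt*, the adrenaline-forming enzyme, was under the filter, with 1.37 and 1.83 TPM in Shh-/- and 0.137 and 0.217 TPM in WT.

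*Chrna3* encodes the α3 subunit of the nicotinic receptor that carries fast transmission in autonomic ganglia (chromosome 9, 55011343 to 55026559). It measured 15.5 and 18.2 TPM in the mutant pools and 6.80 and 3.66 TPM in WT pools, with a wide gap between genotypes. The means were 16.8 ± 1.96 TPM (SD, n = 2) and 5.23 ± 2.22 TPM (SD, n = 2), a 3.22-fold ratio, and the log2 difference was 1.56 with a standard error of 0.29. It lay between 1.19 and 1.93 when any 1 pool was left out.

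The subunits that assemble with α3 were less abundant. *Chrnb4*, the main β partner, was at 3.59 and 3.65 TPM in Shh-/- and 2.36 and 2.09 TPM in WT, so that *Chrna3* was 4.30 and 4.99 times *Chrnb4* in the mutant and 2.88 and 1.75 times in WT. *Chrna5*, from the same gene cluster, was at 1.16 and 1.31 TPM against 0.762 and 0.424 TPM and was under the filter. Of 10 other neuronal subunits 3 were tested, *Chrna4*, *Chrnb2* and *Chrnb4*. All 3 had both Shh-/- pools above both WT pools, where 38.0% of all tested genes did. They did not pass, although all 3 had an unadjusted p under 0.05 (adjusted p = 0.136, 0.0991 and 0.187 from limma). Of 5 muscle subunits only *Chrnb1* was tested (log2 difference 0.23, adjusted p = 0.556 from limma), and *Chrna1* was at 0.104 TPM or less. In the cholinergic list 3 of 5 genes were tested and 0 passed in limma (1 at an unadjusted p under 0.05), the largest difference being that of *Slc18a3*, the vesicular acetylcholine transporter, with 5.18 and 4.51 TPM in Shh-/- (log2 difference 1.65, adjusted p = 0.0595 from limma).

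The order of the members differed between genotypes. In WT the means ran from *Hand2* through *Gata3* (15.0 TPM), *Dbh* (8.00 TPM), *Th*, *Chrna3*, *Gata2* (3.85 TPM) and *Phox2a* to *Hmx1*. Neighbours from *Dbh* to *Phox2a* had overlapping pools in WT, while *Hand2*, *Gata3* and *Hmx1* were each apart from the next. In Shh-/- *Phox2a* came second and *Hmx1* averaged 13.1 TPM, between *Chrna3* and *Dbh*, and *Th* was last. There the pools of *Phox2a*, *Gata3*, *Chrna3*, *Hmx1* and *Dbh* overlapped from each to the next, and *Gata2* and *Th* lay below them.

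The signals that induce autonomic precursors and the receptors that these cells carry formed a list of 23 genes, of which 21 were tested. Of these, 14 were higher and 7 lower, where 9895 of all 16972 tested genes were higher. In limma 0.56% of all tested genes passed as higher, and 1 gene of this list did. That gene was *Ngfr*, the low-affinity neurotrophin receptor of crest cells and ganglia, which rose from 12.2 and 8.66 TPM to 38.5 and 35.5 TPM (log2 difference 1.75, standard error 0.19, adjusted p = 0.047 from limma). *Nrg1*, the neuregulin that guides crest cells, and *Gfra2*, the neurturin co-receptor of parasympathetic neurons, had log2 differences of 1.27 and 1.13 and did not pass (adjusted p = 0.0693 and 0.103 from limma). The BMP ligands were split, with *Bmp4* at 63.9 and 54.1 TPM against 37.7 and 38.2 TPM (adjusted p = 0.0987 from limma) and *Bmp2* at 1.60 and 2.50 TPM against 4.03 and 4.24 TPM (adjusted p = 0.149 from limma). *Ret*, the GDNF family receptor that marks enteric and early sympathetic precursors, was at 12.6 and 19.5 TPM in Shh-/- and 18.7 and 13.5 TPM in WT, with overlapping pools.

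Genes that neurons of many kinds use were higher in the same libraries as most members. In a list of 19 neuron, peptide and secretory granule genes, 17 were tested, with a median log2 difference of 1.79. Of these, 16 were higher in Shh-/- and 8 passed. Among all 16972 tested genes 9895 were higher and 0.56% passed as higher. The summed TPM of the list was 833.0 and 949.8 in Shh-/- against 221.7 and 155.2 in WT, and its part in the members' values was not tested. The 8 that passed were *Stmn2*, *Tubb3*, *Elavl3*, *Prph*, *Nefl*, *Gap43*, *Chga* and *Npy*. *Stmn2*, a microtubule regulator of growing axons, rose from 18.2 and 19.1 TPM to 89.1 and 103.2 TPM (log2 difference 2.30, standard error 0.13, adjusted p = 0.0319 from limma). *Npy*, a cotransmitter of sympathetic neurons, was at 4.43 and 6.25 TPM in Shh-/- and listed at 0 in both WT pools. *Prph*, the intermediate filament of peripheral neurons, rose from 4.58 and 4.20 TPM to 15.4 and 20.6 TPM, and *Chga*, a granule protein of chromaffin and other endocrine cells, from 0.804 and 0.881 TPM to 5.17 and 5.58 TPM (adjusted p = 0.0466 from limma for each). *Sst*, the neuropeptide somatostatin, had a log2 difference of 3.35 (adjusted p = 0.0602 from limma).

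Ratios of members to *Stmn2* within each library are given as a description only, because *Stmn2* itself rose by 2.30 and a member with a smaller difference has a lower ratio in the mutant by arithmetic. The ratio of *Dbh* to *Stmn2* was 0.111 and 0.129 in Shh-/- pools and 0.464 and 0.396 in WT pools, and that of *Gata3* was 0.260 and 0.136 against 0.881 and 0.731. For *Th* the ratio was 0.0124 and 0.0495 in Shh-/- against 0.284 and 0.488 in WT. *Hand2* had 0.926 and 0.535 against 2.24 and 1.85. By contrast, the ratio of *Phox2a* overlapped between genotypes, at 0.251 and 0.225 in Shh-/- and 0.233 and 0.104 in WT, and *Hmx1* had 0.176 and 0.102 in Shh-/- and 0.00866 in the WT pool where it was listed above 0. *Chrna3* was at 0.173 and 0.177 against 0.374 and 0.192.

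The choice of neuron gene matters for some of these. Set against *Elavl4*, a neuronal RNA-binding protein with a smaller difference (log2 difference 1.19, adjusted p = 0.0529 from limma), the ratio of *Phox2a* was 1.06 and 1.03 in Shh-/- and 0.450 and 0.231 in WT, and that of *Chrna3* was 0.734 and 0.806 against 0.723 and 0.425. Ratios of *Hand2*, *Gata2*, *Gata3*, *Dbh* and *Th* to *Elavl4* stayed lower in both Shh-/- pools than in both WT pools. *Stmn2* and *Elavl4* were chosen after their values were seen, and neither is specific to autonomic neurons.

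**Figure D3:**
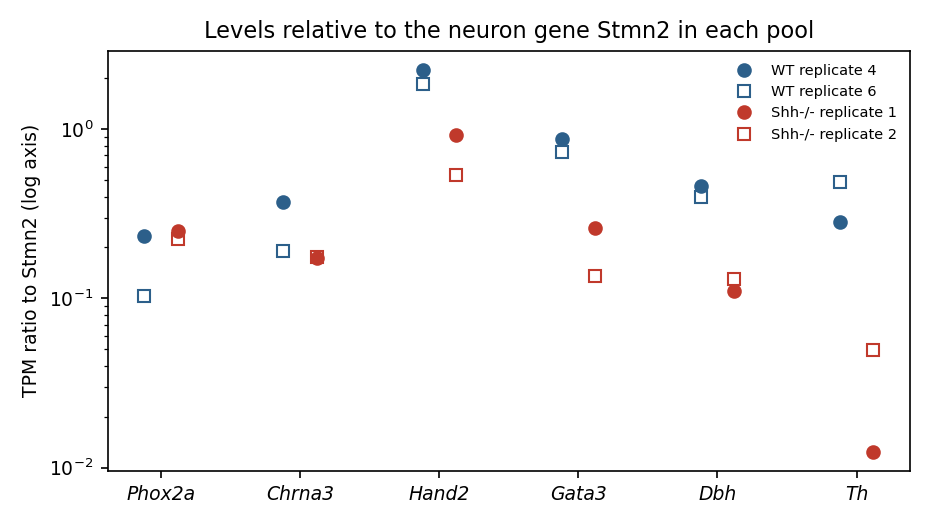
TPM of 6 members divided by the TPM of *Stmn2* in the same library, on a log axis, with blue for WT and red for Shh-/- pools. *Phox2a* overlaps between genotypes, while *Chrna3*, *Hand2*, *Gata3*, *Dbh* and *Th* have both red points below both blue points, *Th* with the widest separation on this log axis.

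Markers of other cells that use members are given next, list by list. Of the sensory neuron and placode list, 6 of 8 genes were tested. All 6 had both Shh-/- pools above both WT pools, where 38.0% of all tested genes did. In limma 2 passed as higher, where 0.56% of all tested genes did. *Eya2*, a coactivator of placode development, was among the 2 (log2 difference 1.61, adjusted p = 0.0449 from limma). *Neurog2*, a proneural factor of epibranchial placodes and sensory ganglia, was at 31.4 and 28.7 TPM in Shh-/- and at 3.45 and 0.0453 TPM in WT. *Neurod1* and *Neurod4* had log2 differences of 3.01 and 3.07. None of the 3 passed under the reported scaling (adjusted p = 0.0828, 0.0736 and 0.0525 from limma). *Neurod4* passed under quantile normalization, median centring and FPKM. The summed TPM of this list was 140.1 to 160.7 in Shh-/- and 14.0 to 26.4 in WT, and its defining sensory marker *Pou4f1* was at 1.12 and 1.37 TPM against 0.272 and 0.186 TPM. Their part in the values of *Phox2a*, *Hmx1* and *Chrna3* was not tested.

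The neural crest and Schwann precursor list summed to 132.4 to 163.8 TPM in Shh-/- and 98.9 to 127.5 TPM in WT. Of its 7 tested genes 6 were higher, where 9895 of all 16972 tested genes were. In limma 0 of the 7 passed (4 at an unadjusted p under 0.05). *Ets1*, the most abundant gene of the list, was lower, at 50.8 and 33.0 TPM in Shh-/- and 63.3 and 54.7 TPM in WT. *Sox10*, which defines crest and glial precursors, was at 34.0 and 28.6 TPM against 18.2 and 11.7 TPM (adjusted p = 0.109 from limma), and *Tfap2a*, an early crest factor, had a log2 difference of 1.54 (adjusted p = 0.0887 from limma). The motor neuron list summed to 3.23 to 4.84 TPM in Shh-/- and 11.6 to 20.1 TPM in WT. Of its 6 genes 3 were tested and all 3 were lower, where 7077 of all 16972 tested genes were. The difference between the sums of the genotypes rested largely on *Nkx6-1*, with 15.8 and 5.82 TPM in WT and 0.0726 and 1.85 TPM in the mutant. *Lhx3* was listed at 0 in every library and *Olig2* at 0 in 3 of 4. *Nkx6-1*, which foregut epithelium also expresses, had the largest difference of the list (-2.62, adjusted p = 0.118 from limma).

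Heart and arch mesoderm genes, relevant to *Hand2* and *Hand1*, were mixed, with 8 higher and 4 lower of 12 tested, near the share of 9895 of 16972 that were higher among all tested genes. The cardiac myosins *Myh6* and *Myh7* rose by 1.76 and 2.13 on the log2 scale (adjusted p = 0.0448 and 0.0422 from limma). The arch genes *Dlx5* and *Dlx6*, which act upstream of *Hand2* in the mandibular arch, had log2 differences of 2.05 and 2.04 and did not pass (adjusted p = 0.119 and 0.104 from limma), with *Dlx5* at 20.0 and 13.0 TPM in Shh-/- and 5.71 and 1.56 TPM in WT. The cardiac factor *Nkx2-5* had a log2 difference of -1.42 (adjusted p = 0.0697 from limma), and *Gata4*, a GATA factor of heart and foregut mesoderm, was at 4.46 and 9.95 TPM against 5.56 and 6.03 TPM. The whole list summed to 193.7 to 196.3 TPM in Shh-/- and 139.0 to 158.5 TPM in WT, and its part in the *Hand2* values was not tested.

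For *Gata2*, the blood and endothelium list summed to 285.3 to 322.7 TPM in Shh-/- and 191.0 to 199.8 TPM in WT. The erythroid factor *Gata1* was at 4.41 and 6.88 TPM in Shh-/- and 7.09 and 6.67 TPM in WT, with overlapping pools, while the endothelial receptors *Tek* and *Kdr* and the stem cell factor receptor *Kit* had log2 differences of 1.03, 0.80 and 1.35 (adjusted p = 0.0688, 0.0809 and 0.0696 from limma). For *Gata3*, the pouch and epithelium list summed to 195.0 to 269.7 TPM in Shh-/- and 166.6 to 175.9 TPM in WT. The largest part of this sum was *Epcam*, used above as a larynx epithelial marker. It was at 123.4 and 100.8 TPM in Shh-/- and 90.3 and 86.4 TPM in WT. *Cdh1* of the same list was lower in both mutant pools than in both WT pools (log2 difference -0.42, adjusted p = 0.311 from limma). The pouch factor *Pax1* was at 30.1 and 9.67 TPM in the mutant pools and 1.08 and 0.40 TPM in WT, highest in the first Shh-/- pool, which was also the highest library for *Gata3*. Whether these cells account for any of the *Gata2* or *Gata3* values was not tested.

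Over these lists 15 of 108 tested genes passed as higher in Shh-/- and 0 as lower, with a median log2 difference of 0.53. Left out were the HH pathway and larynx genes that served to check the labels. Of those, *Ptch1* and *Hhip* passed as lower and *Twist1* as higher. Over all tested genes 0.56% passed as higher and 0.165% as lower, with a median of 0.08. Because the listed genes were chosen with earlier results of these data known, nothing is read from the difference in shares. With any 1 pool left out 0 of these genes passed in limma, while 2070 to 3761 of all genes had an unadjusted p under 0.05.

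**Figure D4:**
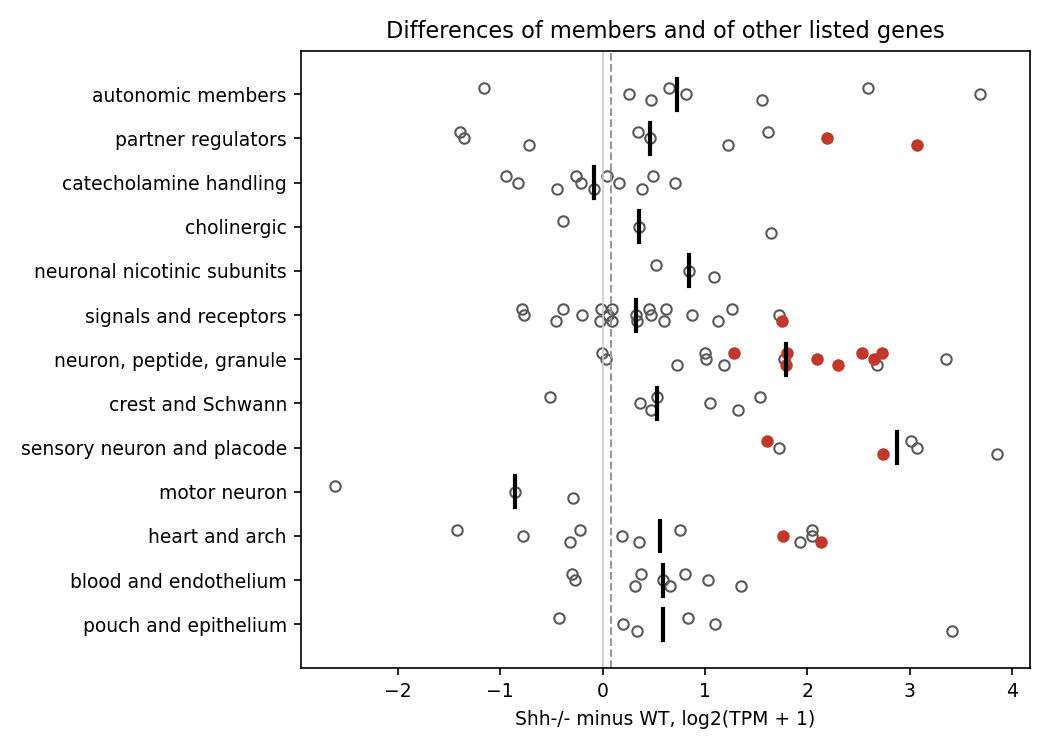
Difference of each tested gene, Shh-/- minus WT in log2(TPM + 1), for the members and for 12 lists of other genes, with a black bar at the median of each list and a dashed line at the median of all tested genes, 0.08. Filled red points are genes with a limma adjusted p under 0.05; members carry no test and are drawn open.

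The genes with profiles nearest to those of the members over the 4 pools, by Euclidean distance between centred log2(TPM + 1) values, were *Rgs4* (distance 0.144) and *Tubb3* (0.152) for *Phox2a* and *Pmel* (0.271) for *Hmx1*. For *Chrna3* they were *Fgd5* (0.130) and *Barx1* (0.170). For *Hand2* they were *Hps4* and *Mn1*, at distances of 0.0448 and 0.0486. *Gata2* was nearest to *H1fx* and *Kctd17*, *Gata3* to *Pex5* and *Tirap*, *Dbh* to *Wbp2* and *Lyz2*, and *Th* to *2610001J05Rik* and *Gm24399*, the last pair at 0.186 and 0.263. No member was among the 35 nearest genes of another, the closest being *Phox2a*, which ranked 36 for *Hmx1*.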

How the data were processed

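Bulk RNA-seq of 4 pools was analysed. Per the labels, the study's methods and the submitters' processing notes, the authors made poly(A)-selected directional libraries, aligned single-end reads to mm10 with HISAT2 2.1.0 and assembled genes with StringTie 1.3.6. The deposited tables give coverage (mean reads per base), FPKM and TPM (the authors' FPKM rescaled to the same sum in each library). FPKM is coverage scaled by aligned bases for many genes but not for all. The tables were used without read counts, and the annotation release is not given in the sources used here. A 0 can be a failed estimate.

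Rows were summed per gene ID, and each member had 1 row per table. The 16972 genes averaging 1 TPM or more were fitted as log2(TPM + 1) with limma 3.58.1 in R 4.3.3 (eBayes with trend, no covariates), with Benjamini-Hochberg adjustment over all of them and a threshold of 0.05. The scale understates changes of low genes. Two-sided exact permutation of 2 pools against 2 allows no p below 0.333. Nothing says that pools came from separate litters, so p-values measure the spread between these pools only.

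The members and lists were chosen with earlier results of these data known. Named were all members, their closest partners, every listed gene past the threshold and up to 4 of the largest differences per list. Other listed genes were named after their values were seen. Some listed genes that this rule names are counted in their lists but not reported here. The test was tried on simulated data. Alternatives were another pseudocount, 2 filters, quantile normalization, median centring, FPKM, each pool left out, and an adjustment for transcript GC and length added after the data were seen. Promoters came from RefSeq (GRCm38.p6), lengths and GC content from GENCODE M21.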

Additional observations from a re-analysis of the deposited data

How the results depend on the processing

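The median difference of the members was 0.73 and stayed between 0.60 and 0.95 when any 1 pool was left out, but it was 0.32 under the GC and length adjustment. The number of members with separate pools was 7, and 6 to 8 elsewhere. *Gata3* changed sign, to -0.083, without the first Shh-/- pool, and no other member changed sign under any of the alternatives. The number of genes called by limma was 123, and 15 among the other listed genes. A pseudocount of 0.1 gave 69 and 9, and no filter gave 0 and 0, with 5011 genes at an unadjusted p under 0.05. Leaving out 1 pool gave 0 to 16 genes called and 0 listed genes, where the lone pool is assumed to vary like the others, and 2070 to 3761 genes were at an unadjusted p under 0.05. *Hand1* passed as lower under quantile normalization, median centring and the GC and length adjustment, and *Nkx2-5* under the last pair, while *Chga* and *Prph* did not pass under these. With a mean TPM of at least 5, 82 genes and 11 listed genes passed. The median of all genes was 0.08, and -0.05 after median centring, and 7 of 8 members were higher under both. Coverage of *Th* was lowest, 0.615 reads per base, in the least deeply sequenced pool. No paired analysis was possible because the genotypes share no replicate numbers.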
